A study of Mus musculus with 28 samples.

Results

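Transforming growth factor beta (TGF-beta) and bone morphogenetic protein (BMP) ligands, their receptors, their secreted antagonists and binding proteins, and their inhibitory SMADs and Id targets were followed through sorted mouse mammary cells. The 42 genes were given as a list of symbols covering 15 ligands, 11 receptors, 11 antagonists and binding proteins and 5 inhibitory SMADs and targets, and every one was matched by Ensembl ID among the 50600 genes counted. RNA-seq was performed on stromal and luminal cells of adult female PdgfrαCre R26mTmG mice on a C57BL/6 background, each lineage split by fluorescence. All mice carried both alleles. The Cre is driven by the Pdgfra promoter, so GFP marks cells that expressed it at any time and the progeny of such cells, and tdTomato marks cells without recombination. Cells positive for CD31, CD45 or Ter119 were removed before the stromal (CD49f-negative, EpCAM-negative) and luminal (CD49f-low, EpCAM-positive) gates. The 4 untreated mice and the 3 mice treated with estrogen and progesterone (E+P) each gave 4 libraries, which made 8 groups of GFP+ or tdTomato+, stromal or luminal, untreated or E+P-treated cells and 28 libraries. Samples of the same mouse thus recur across subsets and lineages, while untreated and E+P-treated cells come from different mice.

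TGF-beta and activin ligands signal through pairs of serine/threonine kinase receptors to receptor-regulated SMADs, as do BMPs through receptors of their own. Follistatin, noggin and gremlin bind ligands outside the cell, some latent TGF-beta binding proteins hold TGF-beta in the matrix, and the inhibitory SMADs feed back on the receptors. In the mammary gland TGF-beta is known as an inhibitor of ductal growth, and BMPs as signals between stroma and epithelium.

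Libraries held 8623383 to 24583803 counts, so that 3 counts corresponded to 0.116 to 0.302 CPM, the unit of all levels here (counts over library size, scaled). Marker genes of cell types were summed in CPM. Luminal epithelial markers, 9 genes led by Krt18 or Krt8, summed to 6779 ± 858 (SD, n = 4) without treatment in the luminal GFP+ subset against 7852 ± 249 (n = 4) in the luminal tdTomato+ subset. In stroma their sums were 22.3, 93.6, 32.4 and 19.9 in untreated GFP+ libraries and 6.25, 5.28 and 4.53 after E+P, against 87.1, 327, 519 and 20.1 in untreated tdTomato+ libraries and 10.4, 42 and 3.92 after E+P. Inhbb, a gene higher in luminal cells, was at 14.8, 33.6, 16.5 and 17.4 CPM in untreated and 22.2, 26.2 and 33.5 in E+P-treated GFP+ stroma. In tdTomato+ stroma it was at 6.36, 15.5, 25.2 and 4.08 CPM untreated and 18.4, 8.15 and 5.51 after E+P. Its order followed the marker sums in untreated tdTomato+ stroma but not in the other 3 stromal groups, and carry-over of luminal cells was not tested. Fibroblast and adipocyte progenitor markers, 11 genes led by Col3a1, summed to 45023 ± 13381 (n = 4) in untreated GFP+ stroma, but only 4289 ± 2028 (n = 4) in untreated tdTomato+ stroma. Muscle and pericyte markers were higher in tdTomato+ stroma. Pericyte and smooth muscle markers (9 genes) summed there to 8777 ± 1688 untreated (n = 4) and 7981 ± 441 after E+P (n = 3). Skeletal muscle markers (9 genes, led by Acta1) summed to 8080.4 ± 5311 and 14856 ± 8625, and muscle satellite cell markers (5 genes, led by Pax7) to 261 ± 33.7 and 251 ± 62.1. In GFP+ stroma the skeletal muscle sum was 12.1 ± 1.56 untreated and 12.9 ± 4.27 after E+P. Of 7 endothelial markers 5 were lower and 1 (Tek) higher in GFP+ stroma, and 4 basal epithelial (of 7) and 2 immune markers (of 7) were lower. Schwann cell markers (6 genes) did not exceed 21.6 CPM in the mean of any stromal group, with 2 higher and 1 lower in GFP+ cells. The stromal subsets thus differed in cell type markers, and in these bulk samples fewer cells of a type and less RNA per cell cannot be told apart.

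Most members differed by lineage and by subset, and in the main test calls after E+P were nearly all in tdTomato+ luminal cells. A gene was called there at an adjusted p under 0.01 by edgeR's quasi-likelihood test with Benjamini-Hochberg adjustment over all genes tested. DESeq2's Wald test instead called 5 members in GFP+ and 13 in tdTomato+ luminal cells after E+P (12.3% and 21.5% of all genes). It called 3 in GFP+ and 5 in tdTomato+ stroma (1.08% and 2.16%). Its 5 in GFP+ luminal cells were Inhbb, Tgfbr2, Acvrl1, Ltbp1 and Bmp7, of which edgeR called Inhbb alone. Without E+P-treated replicate 2, edgeR called 3 members in tdTomato+ luminal cells (6.74% of all genes). Between stroma and luminal cells 41 of 42 members tested were called against 63.5% of all genes, 30 higher in stroma (33% of all genes) and 11 lower (30.5%). Of the 42, 6 passed the low-count filter through stroma alone (Bmp4, Bmp6, Gdf10, Nog, Grem1 and Chrdl1) and could only come out higher in stroma. Among genes that passed it within both lineages 35 of 36 members were called against 63.7% of 15037 genes, 24 higher in stroma (30.4%) and 11 lower (33.3%). Between GFP+ and tdTomato+ stroma 29 of 42 were called against 42% of all genes, 15 higher in GFP+ cells (20.6%) and 14 lower (21.3%). The 14 include Bmpr1b, which passed the filter through tdTomato+ stroma alone and could only come out lower in GFP+ cells. Between GFP+ and tdTomato+ luminal cells 20 of 36 members tested were called against 34.7%, 13 higher in GFP+ cells (15.7%) and 7 lower (19%). The 13 include Bmp5, which passed the filter through GFP+ luminal cells alone and could only come out higher there. The same 6 members were too low in luminal cells to be tested there. The subset difference itself differed between stroma and luminal cells for 17 of the 36 members that passed the filter within both lineages, against 39.6% of such genes and 33.2% of all genes tested. Bmp5 is among these 17, with the direction of its luminal part fixed by the filter. E+P changed 11 of 36 members in tdTomato+ luminal cells against 14.1% of all genes, 6 higher (7.63%) and 5 lower (6.44%), and 1 of 36 in GFP+ luminal cells against 5.96% (higher 3.17%, lower 2.78%). Its effect differed between the luminal subsets for 2 of 36 members, against 2.27%. No member was called after E+P in GFP+ stroma (0.231% of all genes), in tdTomato+ stroma (0.124%) or for the difference between them (0.045%). The median absolute log2 fold change was 1.03 over the members tested and 0.65 over all genes tested between the stromal subsets. It was 0.94 over the members tested and 0.44 over all genes tested between the luminal subsets and, over genes that passed the filter within both, 1.87 and 0.63 between the lineages. After E+P it was 0.41 over the members tested and 0.34 over all genes tested in GFP+ luminal cells, and 0.91 over the members tested and 0.44 over all genes tested in tdTomato+ luminal cells.

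Of the 12 ligands that passed the filter within both lineages, 7 were higher in stroma (30.4% of all such genes) and 4 in luminal cells (33.3%). Gdf10, Bmp6 and Bmp4 passed it through stroma alone, and for them levels are given without a test. Gdf10 (ENSMUSG00000021943.6, chr14:33923587-33937983; Ensembl ID and GRCm38 position, here and below from GENCODE M21), a member of the TGF-beta superfamily also called BMP3b, ranged over 3.98, 59.3 and 155 CPM (lowest, median and highest of 14 libraries) in stroma and 0, 0 and 0.286 in luminal cells, where 11 of 14 libraries had 0 counts. Bmp6 ranged over 4.04, 9.25 and 25.2 CPM in stroma and 0, 0 and 0.403 in luminal cells, with 0 counts in 10 of 14 luminal libraries. Both genes thus stood clear of zero in stroma alone, at least 361-fold higher for Gdf10 and at least 62.6-fold higher for Bmp6 when luminal cells are set at 3 counts a library. Bmp5 ranged over 5.41, 18.4 and 29.7 CPM in stroma and 0, 0.554 and 2.11 in luminal cells. Bmp2 ranged over 14.4, 30.1 and 175 CPM in stroma and 0.317, 1.48 and 3.72 in luminal cells, and Bmp4 over 2.11, 7.43 and 12.7 and 0, 0.342 and 1.84. The 14 stromal libraries lay above the 14 luminal libraries in each of the 5 genes. The log2 fold change of stroma over luminal cells, tested by edgeR's quasi-likelihood test with Benjamini-Hochberg adjustment, was 5.44 ± 0.25 for Bmp5 (adjusted p = 2e-16; higher in 7 of 7 mice) and 4.59 ± 0.31 for Bmp2 (adjusted p = 5.51e-12; higher in 7 of 7 mice). Gdf11, Gdf15, Inhba, Bmp7 and Tgfb2 were also called higher in stroma, though Bmp7 was higher there in 4 of 7 mice among tdTomato+ cells and Tgfb2 in 1 of 7 among GFP+ cells. Inhbb, the activin B subunit, was lower in stroma, as were Bmp3 and Tgfb3, with log2 fold changes of -3.41 ± 0.23 (adjusted p = 6.17e-12), -2.55 ± 0.28 (adjusted p = 2.8e-08) and -1.55 ± 0.12 (adjusted p = 1.34e-11) by the same edgeR test. By subset, Inhbb was lower in stroma in every mouse, while Bmp3 was higher there in 3 of 7 mice among GFP+ cells and Tgfb3 in 3 of 7 among tdTomato+ cells. Inha and Tgfb2 were called with small margins: Inha passed in 2 of 7 refits (passing only without untreated mouse 3 or E+P-treated mouse 3; adjusted p up to 0.124) and Tgfb2 passed in 2 of 7 refits (passing only without untreated mouse 2 or 4; adjusted p up to 0.0271) when 1 mouse was left out. Inha was not called with the mouse as a block (adjusted p = 0.0112). Tgfb1 was the member not called, with a log2 fold change of 0.35 ± 0.14 (adjusted p = 0.0277) by edgeR.

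Within the stroma Bmp7 and Gdf10 were the ligands higher in GFP+ cells. Bmp7 (ENSMUSG00000008999.7, chr2:172868012-172940321) stood at 16.8, 9.30, 17.2 and 14.8 CPM in untreated GFP+ stroma and 19.2, 18.9 and 13.5 after E+P, against 3.80, 0.903, 4.05 and 0.874 in untreated tdTomato+ stroma and 0.868, 0.0988 and 0.184 after E+P. Gdf10 stood at 134, 155, 116 and 119 CPM in untreated GFP+ stroma and 74.5, 90.3 and 119 after E+P, against 20.6, 11.6, 44.0 and 25.0 in untreated tdTomato+ stroma and 3.98, 4.84 and 11.1 after E+P. In both genes the 7 GFP+ libraries lay above the 7 tdTomato+ libraries, and the lowest tdTomato+ values came from E+P-treated mice. Bmp2, Bmp6 and Tgfb3 were higher in tdTomato+ stroma. Bmp2 stood at 22.7, 34.2, 27.1 and 24.9 CPM in untreated GFP+ stroma and 14.4, 27.0 and 28.2 after E+P, against 24.4, 49.9, 32.0 and 52.2 in untreated tdTomato+ stroma and 52.9, 175 and 162 after E+P. Bmp6 stood at 4.16, 5.11, 5.79 and 4.04 CPM in untreated GFP+ stroma and 7.06, 12.0 and 5.61 after E+P, against 20.9, 10.7, 22.8 and 7.77 in untreated tdTomato+ stroma and 25.2, 11.4 and 18.4 after E+P. Tgfb3 stood at 36.3, 41.9, 45.0 and 33.6 CPM in untreated GFP+ stroma and 38.0, 50.9 and 39.7 after E+P, against 137.9, 79.9, 88.5 and 57.5 in untreated tdTomato+ stroma and 83.4, 85.9 and 80.3 after E+P. The GFP+ and tdTomato+ libraries overlapped in Bmp2 and Bmp6 and not in Tgfb3. Tested by edgeR's quasi-likelihood test with Benjamini-Hochberg adjustment, the log2 fold change of GFP+ over tdTomato+ stroma was 3.99 ± 0.43 for Bmp7 (adjusted p = 1.1e-06; higher in 7 of 7 mice), 3.09 ± 0.30 for Gdf10 (adjusted p = 2.15e-06; higher in 7 of 7 mice), -1.53 ± 0.28 for Bmp2 (adjusted p = 0.000469; higher in 0 of 7 mice), -1.44 ± 0.26 for Bmp6 (adjusted p = 0.000186; higher in 1 of 7 mice) and -1.10 ± 0.15 for Tgfb3 (adjusted p = 8.86e-06; higher in 0 of 7 mice). Tgfb1, Gdf15, Bmp5 and Bmp4 were called lower in GFP+ stroma by smaller amounts, with log2 fold changes of -1.02, -0.97, -0.92 and -0.91 for Gdf15, Tgfb1, Bmp5 and Bmp4. Leaving out 1 mouse at a time, Gdf15 passed in 2 of 7 refits (passing only without untreated mouse 1 or 2; adjusted p up to 0.0274), Bmp5 passed in 4 of 7 refits (failing without untreated mouse 2 or E+P-treated mouse 1 or 2; adjusted p up to 0.0236) and Bmp4 passed in 2 of 7 refits (passing only without untreated mouse 2 or E+P-treated mouse 2; adjusted p up to 0.0928). Bmp4 was not called with the mouse as a block (adjusted p = 0.0222). Inhba, not called here, was called with that block (adjusted p = 0.00511).

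In luminal cells the TGF-beta genes parted by subset, Tgfb2 and Tgfb3 being higher in GFP+ cells and Tgfb1 in tdTomato+ cells. Tgfb1 stood at 11, 7.55, 15.4 and 7.78 CPM in untreated GFP+ luminal cells and 13.6, 9.90 and 8.57 after E+P, against 30.6, 33.6, 27.5 and 33.9 in untreated tdTomato+ luminal cells and 67.1, 66.8 and 69.6 after E+P. Tgfb2 stood at 56.3, 56.6, 51.2 and 72.8 CPM in untreated GFP+ luminal cells and 118, 116 and 150.005 after E+P, against 13.2, 4.20, 17.8 and 25.2 in untreated tdTomato+ luminal cells and 13.1, 15.7 and 10.7 after E+P. Tgfb3 stood at 235, 311, 265 and 315 CPM in untreated GFP+ luminal cells and 208, 301 and 277 after E+P, against 66.8, 46.4, 74.7 and 100.2 in untreated tdTomato+ luminal cells and 137, 206 and 179 after E+P. The 7 GFP+ and 7 tdTomato+ libraries did not overlap in any of the 3 genes. Bmp3, a BMP that antagonizes other BMPs, was higher in tdTomato+ cells and Inhbb in GFP+ cells. Bmp3 (ENSMUSG00000029335.5, chr5:98854415-98884396) stood at 7.79, 1.21, 12.0 and 3.62 CPM in untreated GFP+ luminal cells and 49.1, 15.7 and 14.3 after E+P, against 29.3, 58.2, 37.7 and 78.9 in untreated tdTomato+ luminal cells and 378, 578 and 712 after E+P. Inhbb (ENSMUSG00000037035.5, chr1:119415465-119422248) stood at 413, 631, 389 and 519.9 CPM in untreated GFP+ luminal cells and 184, 247 and 231 after E+P, against 239, 302, 305 and 298 in untreated tdTomato+ luminal cells and 33.3, 35.8 and 27.3 after E+P. Both genes overlapped between the subsets, the overlap being of E+P-treated GFP+ with untreated tdTomato+ libraries. Fold changes of GFP+ over tdTomato+ luminal cells on the log2 scale, tested by edgeR's quasi-likelihood test with Benjamini-Hochberg adjustment, were -3.73 ± 0.47 for Bmp3 (adjusted p = 4.81e-05; higher in 0 of 7 mice), 2.60 ± 0.30 for Tgfb2 (adjusted p = 2.44e-05; higher in 7 of 7 mice), -2.15 ± 0.16 for Tgfb1 (adjusted p = 7.84e-07; higher in 0 of 7 mice), 1.75 ± 0.12 for Inhbb (adjusted p = 5.72e-07; higher in 7 of 7 mice) and 1.25 ± 0.16 for Tgfb3 (adjusted p = 3.23e-05; higher in 7 of 7 mice). Bmp5 stood at 0.887, 2.11, 0.914 and 0.707 CPM in untreated GFP+ luminal cells and 0.952, 0.915 and 0.999 after E+P, against 0.0516, 0, 0.0723 and 0.116 in untreated tdTomato+ luminal cells and 0.401, 0.171 and 0.0951 after E+P. Bmp5 was low in all luminal libraries and apart between the subsets. It passed the low-count filter through GFP+ cells alone and could only come out higher there, so its levels are given without a test. On the scale of CPM per kilobase of exon, the most abundant ligand of untreated GFP+ luminal cells was Inhbb at 115 ± 26.1 (SD, n = 4), followed by Tgfb3 at 83.2 ± 11.3. In untreated GFP+ stroma Gdf10 led on that scale at 25.2 ± 3.40, and in untreated tdTomato+ stroma Tgfb3 at 26.9 ± 10 (n = 4 each).

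The subset difference was tested against lineage directly, and 8 of 12 ligands were called against 39.6% of all genes that passed the filter within both. The 8 include Bmp5, whose luminal part could only come out higher in GFP+ cells. Bmp5 stood at 19.1, 12.8, 8.35 and 5.41 CPM in untreated GFP+ stroma and 10.9, 7.29 and 15.5 after E+P, against 23.6, 29.7, 18.2 and 20 in untreated tdTomato+ stroma and 20.2, 18.7 and 19.8 after E+P. Tgfb1 stood at 12.5, 19.9, 12.3 and 22.7 CPM in untreated GFP+ stroma and 24.7, 30.4 and 18 after E+P, against 14.9, 34.0, 33.1 and 38.5 in untreated tdTomato+ stroma and 51.2, 57.7 and 42.6 after E+P. Tgfb2 stood at 37.9, 62.0, 49.3 and 40.6 CPM in untreated GFP+ stroma and 64.0, 57.8 and 64.8 after E+P, against 51.5, 33.7, 48.2 and 40.4 in untreated tdTomato+ stroma and 59.6, 51.3 and 53.1 after E+P. Bmp5 was thus higher in tdTomato+ cells of the stroma and in GFP+ cells of the luminal lineage, Tgfb1 was higher in tdTomato+ cells of both, and the Tgfb2 libraries of the stromal subsets overlapped. Bmp3 stood at 15.3, 13.5, 10.2 and 11.8 CPM in untreated GFP+ stroma and 4.63, 3.11 and 11.2 after E+P, against 9.78, 9.03, 17.1 and 15.9 in untreated tdTomato+ stroma and 4.18, 3.56 and 3.79 after E+P. Gdf11 stood at 11.4, 11.8, 16.6 and 17.2 CPM in untreated GFP+ stroma and 18.2, 17.9 and 13.1 after E+P, against 20.1, 18.5, 8.50 and 12.6 in untreated tdTomato+ stroma and 15.1, 10.7 and 12.1 after E+P. Gdf15 stood at 5.60, 12.3, 5.91 and 11.9 CPM in untreated GFP+ stroma and 5.92, 11.9 and 8.27 after E+P, against 5.41, 13.7, 18.6 and 17.1 in untreated tdTomato+ stroma and 19.2, 31.8 and 17.3 after E+P. These stromal libraries overlapped between GFP+ and tdTomato+ cells in each of the 3 genes. Bmp7 stood at 0.317, 0, 0.685 and 0.707 CPM in untreated GFP+ luminal cells and 1.77, 1.51 and 1.21 after E+P, against 1.19, 0.973, 1.23 and 0.659 in untreated tdTomato+ luminal cells and 0.641, 0.598 and 0.666 after E+P. Gdf11 stood at 0.570, 0, 0.800 and 0.472 CPM in untreated GFP+ luminal cells and 0.748, 0.592 and 0.791 after E+P, against 0.310, 0.608, 0.361 and 5.16 in untreated tdTomato+ luminal cells and 5.69, 3.68 and 4.61 after E+P. Gdf15 stood at 0.887, 1.71, 0.857 and 3.93 CPM in untreated GFP+ luminal cells and 2.45, 4.36 and 3.5 after E+P, against 0.723, 0.426, 0.867 and 0.969 in untreated tdTomato+ luminal cells and 2.08, 5.09 and 3.52 after E+P. Luminal Bmp7 overlapped between untreated subsets and was higher in GFP+ cells after E+P. Luminal Gdf11 was higher in tdTomato+ cells after E+P and in 1 untreated library, and Gdf15 overlapped in both treatments. By edgeR's quasi-likelihood test with Benjamini-Hochberg adjustment, the log2 difference of the GFP+ over tdTomato+ fold change, stroma minus luminal cells, was 4.06 ± 0.55 for Bmp3 (adjusted p = 2.57e-06), 3.97 ± 0.60 for Bmp7 (adjusted p = 5.09e-06), -2.47 ± 0.32 for Tgfb2 (adjusted p = 7.83e-07), 2.38 ± 0.63 for Gdf11 (adjusted p = 0.00355), -2.36 ± 0.24 for Tgfb3 (adjusted p = 1.06e-08), -1.60 ± 0.47 for Gdf15 (adjusted p = 0.00765) and 1.18 ± 0.28 for Tgfb1 (adjusted p = 0.00109). For Bmp5 it was -3.98 ± 0.49, given without a test because its luminal part could only come out higher in GFP+ cells. Of the ligands called between subsets in both lineages, Bmp5 apart, Tgfb3 had opposite signs and Tgfb1 the same sign. The luminal part of Bmp5 rests on tdTomato+ values of few counts. When 1 mouse was left out, Gdf11 passed in 3 of 7 refits (failing without untreated mouse 4 or E+P-treated mouse 1, 2 or 3; adjusted p up to 0.0268), Gdf15 passed in 1 of 7 refits (passing only without untreated mouse 1; adjusted p up to 0.0307) and Tgfb1 passed in 6 of 7 refits (failing without E+P-treated mouse 2; adjusted p up to 0.0111). Bmp2 was called only with the mouse as a block (adjusted p = 0.00794). Gdf10 and Bmp6 had 0 counts in every E+P-treated luminal library, so this difference could not be estimated for them.

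**Figure D1:**
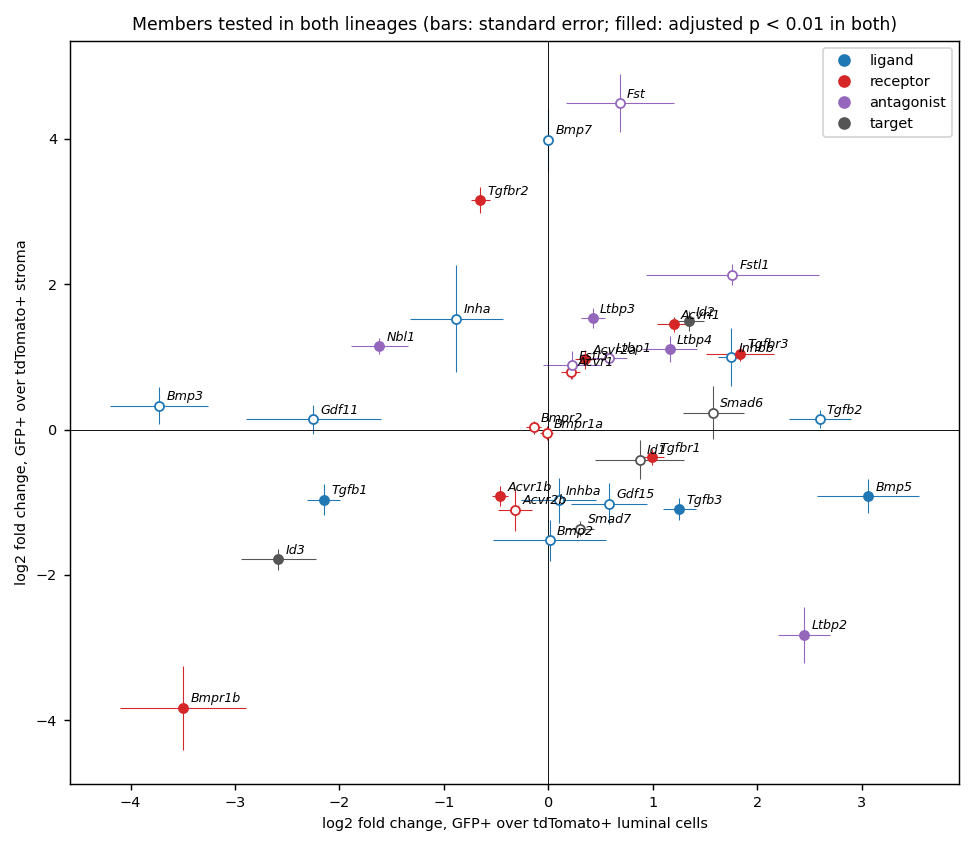
Log2 fold change of GFP+ over tdTomato+ stroma (vertical axis) against that of GFP+ over tdTomato+ luminal cells (horizontal axis) for the 36 members tested in both, coloured by role. Bars are standard errors, left out where the fold change is within 0.01 of 0; filled points have an adjusted p under 0.01 in both lineages. Ltbp2 lies at -2.82 in stroma and 2.45 in luminal cells, and Tgfbr2 at 3.16 and -0.65. The stromal value of Bmpr1b and the luminal value of Bmp5 had their direction fixed by the low-count filter.

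Receptors were detected in both lineages, 6 of 11 being higher in stroma and 5 in luminal cells. Of all genes that passed the filter within both, 30.4% and 33.3% were. Tgfbr3, the co-receptor betaglycan, ranged over 273, 550.2 and 803 CPM (lowest, median and highest of 14 libraries) in stroma and 5.29, 24.1 and 79.3 in luminal cells. Bmpr1b, a type I BMP receptor, ranged over 0, 2.43 and 9.50 CPM in stroma and 0.403, 5.23 and 68.6 in luminal cells. The ranges were apart in Tgfbr3 and overlapped in Bmpr1b. Acvrl1, the type I receptor ALK1, ranged over 14.7, 30.5 and 50.6 CPM in stroma and 2.08, 7.08 and 16.7 in luminal cells. Tgfbr1 ranged over 93.9, 117 and 176 and 17.8, 36.7 and 59.9 CPM, and Acvr2a over 22.9, 35.3 and 88.0 and 11, 15.3 and 19.7 CPM, in stroma and luminal cells respectively. Tgfbr1 and Acvr2a did not overlap between the lineages, and Acvrl1 did. Tested with edgeR's quasi-likelihood test with Benjamini-Hochberg adjustment, the log2 fold change of stroma over luminal cells was 4.59 ± 0.20 for Tgfbr3 (adjusted p = 5.22e-16; higher in 7 of 7 mice), -2.43 ± 0.44 for Bmpr1b (adjusted p = 3.63e-05; higher in 1 of 7 mice), 2.17 ± 0.09 for Acvrl1 (adjusted p = 4.11e-17; higher in 7 of 7 mice), 1.82 ± 0.08 for Tgfbr1 (adjusted p = 1.55e-16; higher in 7 of 7 mice) and 1.33 ± 0.08 for Acvr2a (adjusted p = 1.23e-13; higher in 7 of 7 mice). Bmpr2 was also higher in stroma. Tgfbr2 was called higher over both subsets, but by subset it was higher in stroma in 7 of 7 mice among GFP+ cells and in 0 of 7 among tdTomato+ cells. In the other direction, Acvr2b, Acvr1, Acvr1b and Bmpr1a were called lower by log2 fold changes between -0.77 and -0.19. By subset, Acvr1 was higher in stroma in 4 of 7 mice among GFP+ cells and 0 of 7 among tdTomato+ cells, and Acvr1b in 0 of 7 and 3 of 7. Bmpr1a was higher in stroma in 2 of 7, Acvr2b in 1 of 7 and Bmpr1b in 2 of 7 mice among tdTomato+ cells, and in 0 of 7 among GFP+ cells. When 1 mouse was left out, Acvr1b passed in 6 of 7 refits (failing without E+P-treated mouse 1; adjusted p up to 0.0122) and Bmpr1a passed in 2 of 7 refits (passing only without untreated mouse 1 or 3; adjusted p up to 0.032).

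Tgfbr2, the type II receptor that binds TGF-beta, had the largest increase of the receptors in GFP+ stroma. Tgfbr2 (ENSMUSG00000032440.13, chr9:116084293-116175360) stood at 689.7, 798, 854 and 641 CPM in untreated GFP+ stroma and 1437, 1095 and 1199 after E+P, against 198, 94.1, 193 and 96.2 in untreated tdTomato+ stroma and 80.1, 78.0 and 78.2 after E+P. Tgfbr3 stood at 688, 803, 747 and 688 CPM in untreated GFP+ stroma and 734, 762 and 684 after E+P, against 364, 281, 397 and 273 in untreated tdTomato+ stroma and 416, 366 and 330.3 after E+P. Acvrl1 stood at 46.9, 50.3, 50.6 and 40.9 CPM in untreated GFP+ stroma and 45.8, 49.4 and 46.6 after E+P, against 17.5, 14.7, 16.5 and 16.6 in untreated tdTomato+ stroma and 17.0, 16.6 and 20.1 after E+P. In each of these receptors every GFP+ library was above every tdTomato+ library. Bmpr1b and Acvr2b went the other way. Bmpr1b (ENSMUSG00000052430.15, chr3:141837136-142169425) stood at 0.0757, 0.387, 0 and 0.183 CPM in untreated GFP+ stroma and 2.35, 0.106 and 0.443 after E+P, against 9.50, 6.68, 7.23 and 6.89 in untreated tdTomato+ stroma and 2.5, 5.93 and 3.24 after E+P. Acvr2b stood at 1.44, 5.42, 4.14 and 4.22 CPM in untreated GFP+ stroma and 1.70, 2.48 and 2.46 after E+P, against 6.46, 7.22, 6.5 and 3.88 in untreated tdTomato+ stroma and 8.37, 6.87 and 3.92 after E+P. Bmpr1b did not overlap between the subsets, with 0 counts in 1 GFP+ library, and Acvr2b overlapped. Bmpr1b passed the low-count filter through tdTomato+ stroma alone and could only come out lower in GFP+ cells, so its levels are given without a test. The log2 fold change of GFP+ over tdTomato+ stroma, tested by edgeR's quasi-likelihood test with Benjamini-Hochberg adjustment, was 3.16 ± 0.18 for Tgfbr2 (adjusted p = 3.81e-10; higher in 7 of 7 mice), 1.45 ± 0.10 for Acvrl1 (adjusted p = 2.63e-09; higher in 7 of 7 mice), -1.10 ± 0.29 for Acvr2b (adjusted p = 0.00403; higher in 1 of 7 mice) and 1.05 ± 0.10 for Tgfbr3 (adjusted p = 1.08e-07; higher in 7 of 7 mice). Acvr2a and Acvr1 were higher in GFP+ stroma, with log2 fold changes of 0.97 and 0.80, and Acvr1b and Tgfbr1 lower, with -0.92 and -0.38. Leaving out 1 mouse, Acvr2b passed in 4 of 7 refits (failing without untreated mouse 3 or E+P-treated mouse 1 or 2; adjusted p up to 0.0418) and Tgfbr1 passed in 1 of 7 refits (passing only without untreated mouse 1; adjusted p up to 0.0435). Bmpr1a and Bmpr2 were not called, at -0.05 and 0.03.

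In luminal cells Tgfbr3, Acvrl1 and Tgfbr1 were higher in the GFP+ subset. Tgfbr3 stood at 41.2, 79.3, 26.1 and 32.2 CPM in untreated GFP+ luminal cells and 34.0, 38.1 and 34.7 after E+P, against 8.52, 5.29, 13.7 and 9.73 in untreated tdTomato+ luminal cells and 22.1, 10.8 and 6.28 after E+P. Acvrl1 stood at 12.1, 14.1, 10.9 and 16.7 CPM in untreated GFP+ luminal cells and 5.98, 7.70 and 7.16 after E+P, against 5.83, 7.0, 4.41 and 7.41 in untreated tdTomato+ luminal cells and 2.08, 2.99 and 3.09 after E+P. Tgfbr1 stood at 46.1, 59.9, 42.1 and 54.8 CPM in untreated GFP+ luminal cells and 46.2, 51.1 and 48.7 after E+P, against 27.3, 24.5, 23.5 and 31.4 in untreated tdTomato+ luminal cells and 25.6, 23.9 and 17.8 after E+P. The subsets were apart in Tgfbr3 and Tgfbr1 and overlapped in Acvrl1. Tgfbr2 and Bmpr1b were higher in the tdTomato+ subset. Tgfbr2 stood at 133, 110.0, 150.5 and 114 CPM in untreated GFP+ luminal cells and 83.1, 79.1 and 96.7 after E+P, against 208, 239, 218 and 269 in untreated tdTomato+ luminal cells and 125, 103 and 107 after E+P. Bmpr1b stood at 0.443, 0.403, 2.97 and 1.65 CPM in untreated GFP+ luminal cells and 8.56, 1.78 and 1.08 after E+P, against 3.46, 7.36, 7.01 and 25.2 in untreated tdTomato+ luminal cells and 52.9, 60.3 and 68.6 after E+P. Both overlapped between subsets, and the 3 highest Bmpr1b libraries were the E+P-treated tdTomato+ ones. Tested by edgeR's quasi-likelihood test with Benjamini-Hochberg adjustment, the log2 fold change of GFP+ over tdTomato+ luminal cells was -3.50 ± 0.61 for Bmpr1b (adjusted p = 0.000506; higher in 0 of 7 mice), 1.83 ± 0.33 for Tgfbr3 (adjusted p = 0.0006; higher in 7 of 7 mice), 1.20 ± 0.16 for Acvrl1 (adjusted p = 3.56e-05; higher in 7 of 7 mice), 1.00 ± 0.11 for Tgfbr1 (adjusted p = 9.76e-06; higher in 7 of 7 mice) and -0.65 ± 0.09 for Tgfbr2 (adjusted p = 6.07e-05; higher in 0 of 7 mice). Acvr1b was lower (-0.46) and Acvr2a higher (0.35) in GFP+ cells on the log2 scale. Acvr2a was not called with the mouse as a block (adjusted p = 0.0164), and Acvr2a passed in 2 of 7 refits (passing only without untreated mouse 4 or E+P-treated mouse 1; adjusted p up to 0.0423) when 1 mouse was left out.

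The subset difference of 4 of 11 receptors differed between the lineages, a share of 36.4% against 39.6% of all genes that passed the filter within both. Tgfbr1 stood at 115, 115, 93.9 and 115 CPM in untreated GFP+ stroma and 105, 119 and 100.2 after E+P, against 100.2, 153, 133 and 176 in untreated tdTomato+ stroma and 139, 147 and 131 after E+P. Acvr2a stood at 78.0, 88.0, 61.1 and 52.9 CPM in untreated GFP+ stroma and 38.0, 48.9 and 41.7 after E+P, against 29.6, 24.5, 32.6 and 28.9 in untreated tdTomato+ stroma and 30.2, 26.6 and 22.9 after E+P. Acvr1 stood at 53.5, 46.3, 51.9 and 45.8 CPM in untreated GFP+ stroma and 50.8, 57.8 and 53.6 after E+P, against 29.1, 27.8, 35.5 and 25.9 in untreated tdTomato+ stroma and 28.7, 26.9 and 32.2 after E+P. GFP+ stroma lay above tdTomato+ stroma in all libraries of Acvr2a and Acvr1, while Tgfbr1 overlapped. Acvr2a stood at 19.3, 15.9, 17.0 and 17.4 CPM in untreated GFP+ luminal cells and 15.1, 18.8 and 19.7 after E+P, against 11.9, 12.2, 11 and 15.3 in untreated tdTomato+ luminal cells and 14.4, 15.4 and 13.9 after E+P. Acvr1 stood at 52.5, 52.7, 45.0 and 56.3 CPM in untreated GFP+ luminal cells and 48.6, 45.9 and 62.8 after E+P, against 53.5, 47.0, 49.1 and 61.3 in untreated tdTomato+ luminal cells and 38.1, 37.7 and 34.8 after E+P. Both of these overlapped between the luminal subsets. By edgeR's quasi-likelihood test with Benjamini-Hochberg adjustment, the log2 difference of the subset fold change, stroma minus luminal cells, was 3.79 ± 0.21 for Tgfbr2 (adjusted p = 2.93e-13), -1.38 ± 0.16 for Tgfbr1 (adjusted p = 8.3e-08), 0.60 ± 0.16 for Acvr2a (adjusted p = 0.00389) and 0.57 ± 0.13 for Acvr1 (adjusted p = 0.000737). Tgfbr2 and Tgfbr1 thus changed sign between lineages in opposite ways, Tgfbr2 being higher and Tgfbr1 lower in GFP+ stroma, with the reverse in luminal cells. Leaving out 1 mouse, Acvr2a passed in 4 of 7 refits (failing without untreated mouse 2 or E+P-treated mouse 2 or 3; adjusted p up to 0.0338) and Acvr1 passed in 6 of 7 refits (failing without E+P-treated mouse 2; adjusted p up to 0.0201). Acvr1b was called only with the mouse as a block (adjusted p = 0.0096).

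**Figure D2:**
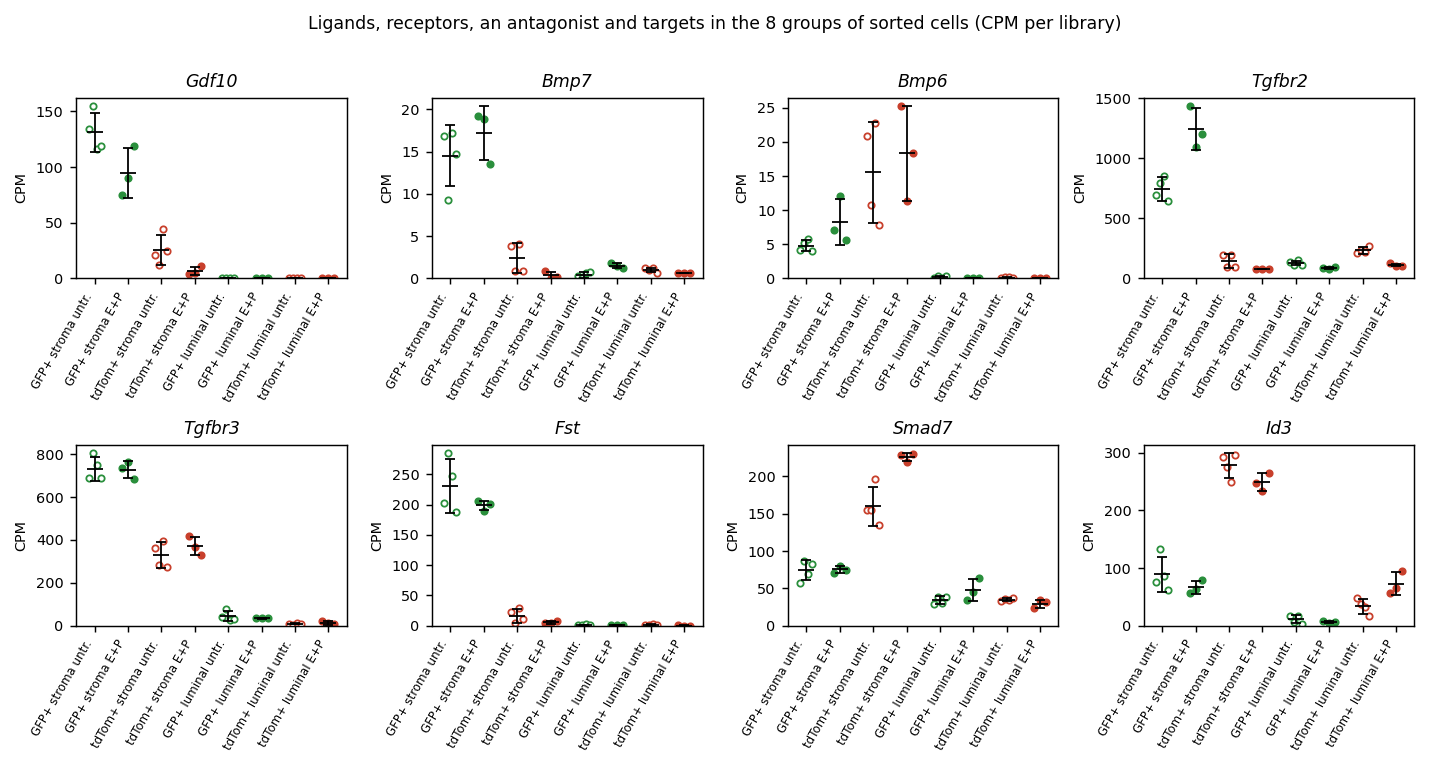
CPM of 8 members in every library of the 8 groups (horizontal axis), with GFP+ cells in green, tdTomato+ cells in red, untreated libraries as open points and E+P-treated libraries as filled points. Black bars give the mean and SD of 3 or 4 libraries; Gdf10, Bmp7, Tgfbr2 and Fst are highest in GFP+ stroma, and Id3 and Smad7 in tdTomato+ stroma.

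Of the 8 antagonists and binding proteins that passed the filter within both lineages, 6 were higher in stroma (30.4% of all such genes) and 2 lower (33.3%). Nog, Grem1 and Chrdl1 passed it through stroma alone, and Chrdl1 is given by level without a test. Fstl1, a follistatin-like secreted protein, ranged over 376, 1216 and 3039 CPM (lowest, median and highest of 14 libraries) in stroma and 0.0476, 0.663 and 4.84 in luminal cells. Chrdl1, a chordin-like BMP antagonist, ranged over 24.5, 65.0 and 169 and 0, 0.0744 and 1.01 CPM. Ltbp4, a latent TGF-beta binding protein, ranged over 124.1, 284 and 518 and 0.428, 1.85 and 3.72 CPM. None of these overlapped between stroma and luminal cells. Fst, which encodes the activin antagonist follistatin, ranged over 3.71, 109 and 284 CPM in stroma and 0.238, 0.525 and 2.89 in luminal cells, and Nbl1, a DAN family BMP antagonist, over 52.5, 107 and 169 and 0.503, 1.14 and 4.25. Both were again apart in all libraries. Fold changes of stroma over luminal cells on the log2 scale, tested by edgeR's quasi-likelihood test with Benjamini-Hochberg adjustment, were 10.48 ± 0.46 for Fstl1 (adjusted p = 2.74e-15; higher in 7 of 7 mice), 7.34 ± 0.17 for Ltbp4 (adjusted p = 5.04e-21; higher in 7 of 7 mice), 5.97 ± 0.33 for Fst (adjusted p = 1.63e-13; higher in 7 of 7 mice) and 5.94 ± 0.13 for Nbl1 (adjusted p = 7.75e-22; higher in 7 of 7 mice). The median over the 8 genes was 3.56, beside -0.06 over all genes that passed the filter within both lineages. Ltbp2 and Ltbp3 were called lower in stroma, with log2 fold changes of -1.92 and -1.31. Ltbp3 was lower in every mouse in both subsets, whereas Ltbp2 was higher in stroma in 0 of 7 mice among GFP+ cells and in 4 of 7, the 3 E+P-treated ones included, among tdTomato+ cells. On the scale of CPM per kilobase of exon, Fstl1 led in untreated GFP+ stroma at 471 ± 112 (SD, n = 4) and Ltbp3 in untreated GFP+ luminal cells at 46.6 ± 4.39 (n = 4).

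Within the stroma 7 of 11 antagonists and binding proteins were higher in GFP+ cells (20.6% of all genes) and 1, Ltbp2, in tdTomato+ cells (21.3%). Fst (ENSMUSG00000021765.7, chr13:114452290-114458951) stood at 202, 284, 247 and 188 CPM in untreated GFP+ stroma and 205, 189.8 and 201 after E+P, against 22.6, 3.88, 29.3 and 10.5 in untreated tdTomato+ stroma and 4.49, 3.71 and 7.83 after E+P. Fstl1 stood at 2305, 2208, 3039 and 1708 CPM in untreated GFP+ stroma and 2591, 2222 and 2203 after E+P, against 725, 456, 698 and 615 in untreated tdTomato+ stroma and 528, 376 and 422 after E+P. Nbl1 stood at 139, 162, 151 and 162 CPM in untreated GFP+ stroma and 132, 142 and 169 after E+P, against 54.2, 74.7, 77.7 and 52.5 in untreated tdTomato+ stroma and 63.2, 63.1 and 81.9 after E+P. The GFP+ libraries were above the tdTomato+ libraries throughout in these 3 genes. Ltbp3 stood at 154, 215, 219.8 and 188 CPM in untreated GFP+ stroma and 263, 291 and 212 after E+P, against 74.9, 82.9, 120.2 and 65.1 in untreated tdTomato+ stroma and 79.4, 64.5 and 58.1 after E+P. Ltbp2 (ENSMUSG00000002020.15, chr12:84783212-84876532) stood at 1.82, 4.49, 2.86 and 2.02 CPM in untreated GFP+ stroma and 7.95, 21.3 and 12.9 after E+P, against 29.2, 21.1, 9.56 and 28 in untreated tdTomato+ stroma and 33.3, 129 and 105 after E+P. Ltbp3 was apart between the subsets, whereas Ltbp2 overlapped, E+P-treated GFP+ libraries reaching above untreated tdTomato+ ones. Tested with edgeR's quasi-likelihood test with Benjamini-Hochberg adjustment, the log2 fold change of GFP+ over tdTomato+ stroma was 4.49 ± 0.40 for Fst (adjusted p = 1.38e-06; higher in 7 of 7 mice), -2.82 ± 0.39 for Ltbp2 (adjusted p = 4.2e-05; higher in 0 of 7 mice), 2.13 ± 0.14 for Fstl1 (adjusted p = 1.31e-09; higher in 7 of 7 mice), 1.53 ± 0.14 for Ltbp3 (adjusted p = 4.95e-08; higher in 7 of 7 mice) and 1.15 ± 0.11 for Nbl1 (adjusted p = 1.28e-07; higher in 7 of 7 mice). Ltbp4, Ltbp1 and Fstl3 were higher by log2 fold changes of 1.11, 0.99 and 0.89. Grem1, Chrdl1 and Nog were not called, and Chrdl1 was called with the mouse as a block (adjusted p = 0.00501). In luminal cells Ltbp2 was higher in the GFP+ subset. Ltbp2 stood at 145, 133, 85.9 and 106 CPM in untreated GFP+ luminal cells and 138.3, 211 and 218 after E+P, against 38.4, 13.0, 26.0 and 37.9 in untreated tdTomato+ luminal cells and 18.8, 33.7 and 21.6 after E+P. Ltbp3 stood at 387, 440.4, 392 and 469.9 CPM in untreated GFP+ luminal cells and 298, 362 and 354 after E+P, against 292, 302, 297 and 311 in untreated tdTomato+ luminal cells and 166.5, 320.2 and 278 after E+P. The GFP+ luminal libraries were all above the tdTomato+ ones in Ltbp2 and overlapped in Ltbp3. By the same edgeR test the log2 fold change of GFP+ over tdTomato+ luminal cells was 2.45 ± 0.25 for Ltbp2 (adjusted p = 1.07e-05; higher in 7 of 7 mice) and 0.42 ± 0.12 for Ltbp3 (adjusted p = 0.00748; higher in 7 of 7 mice). Nbl1 and Ltbp4, each under 5 CPM in luminal cells, were called with -1.62 and 1.16. Leaving out 1 mouse, Ltbp3 passed in 2 of 7 refits (passing only without E+P-treated mouse 1 or 2; adjusted p up to 0.0221) and Ltbp4 passed in 5 of 7 refits (failing without E+P-treated mouse 2 or 3; adjusted p up to 0.0181). Ltbp1 was called with the mouse as a block (adjusted p = 0.00733) and not without it.

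The subset difference of these 4 genes, of 8 tested, also differed between the lineages (39.6% of all genes that passed the filter within both). The log2 difference of stroma minus luminal cells was -5.28 ± 0.48 for Ltbp2 (adjusted p = 5.22e-09), 3.74 ± 0.80 for Fst (adjusted p = 0.000544), 2.73 ± 0.24 for Nbl1 (adjusted p = 1e-09) and 1.10 ± 0.19 for Ltbp3 (adjusted p = 3.49e-05) by edgeR's quasi-likelihood test with Benjamini-Hochberg adjustment. Ltbp2 and Nbl1 had opposite signs in stroma and luminal cells. Fst stood at 0.507, 1.21, 1.94 and 0.472 CPM in untreated GFP+ luminal cells and 0.544, 1.02 and 0.832 after E+P, against 0.413, 0.365, 2.89 and 1.01 in untreated tdTomato+ luminal cells and 0.320, 0.256 and 0.238 after E+P. Nbl1 stood at 1.14, 0.503, 0.800 and 1.02 CPM in untreated GFP+ luminal cells and 0.816, 1.13 and 1.04 after E+P, against 2.32, 2.43, 2.60 and 0.969 in untreated tdTomato+ luminal cells and 4.25, 4.10 and 3.33 after E+P. Both overlapped between the luminal subsets, and the luminal part of Fst rests on values of few counts.

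All 5 inhibitory SMADs and Id genes, which are known to be induced by BMP or TGF-beta signals, were called higher in stroma. Of all genes that passed the filter within both lineages, 30.4% were. Id1 ranged over 3.12, 8.48 and 16.7 CPM (lowest, median and highest of 14 libraries) in stroma and 0.401, 1.08 and 2.42 in luminal cells. Id3 ranged over 56.9, 183 and 295 and 3.30, 16.9 and 95.2 CPM, and Id2 over 19.1, 39.1 and 93.6 and 8.70, 31.1 and 65.7 CPM. The lineages were apart in Id1 and overlapped in Id3 and Id2. Smad6 ranged over 1.80, 7.52 and 12.6 CPM in stroma and 0.320, 2.57 and 4.93 in luminal cells, and Smad7 over 57.7, 111.02 and 230.4 and 23.3, 34.0 and 63.3, each with overlap. The log2 fold change of stroma over luminal cells, tested by edgeR's quasi-likelihood test with Benjamini-Hochberg adjustment, was 2.85 ± 0.26 for Id1 (adjusted p = 3.1e-10; higher in 7 of 7 mice), 2.81 ± 0.20 for Id3 (adjusted p = 1.21e-11; higher in 7 of 7 mice), 1.78 ± 0.25 for Smad6 (adjusted p = 7.89e-07; higher in 7 of 7 mice), 1.73 ± 0.09 for Smad7 (adjusted p = 3.08e-15; higher in 7 of 7 mice) and 0.35 ± 0.10 for Id2 (adjusted p = 0.00268; higher in 5 of 7 mice). Id2 passed in 3 of 7 refits (failing without untreated mouse 2 or 3 or E+P-treated mouse 1 or 3; adjusted p up to 0.0339) when 1 mouse was left out, and among E+P-treated mice alone its log2 fold change was -0.09.

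Id2 and Id3 differed between subsets in opposite directions, and did so in both lineages. Id2 (ENSMUSG00000020644.8, chr12:25093799-25097140) stood at 66.7, 93.6, 64.2 and 49.9 CPM in untreated GFP+ stroma and 54.4, 62.5 and 68.5 after E+P, against 20.8, 28.2, 28.3 and 23.9 in untreated tdTomato+ stroma and 21.5, 21.1 and 19.1 after E+P. Id3 (ENSMUSG00000007872.3, chr4:136143497-136145755) stood at 75.4, 132, 86.8 and 62.5 CPM in untreated GFP+ stroma and 56.9, 63.5 and 79.5 after E+P, against 292, 274, 249.7 and 295 in untreated tdTomato+ stroma and 247, 234 and 266 after E+P. Smad7 stood at 57.7, 87.2, 68.8 and 82.2 CPM in untreated GFP+ stroma and 71.0, 80.0 and 75.2 after E+P, against 154, 154, 196 and 135 in untreated tdTomato+ stroma and 228, 219.9 and 230.4 after E+P. GFP+ stroma was above tdTomato+ stroma in every library of Id2 and below it in every library of Id3 and Smad7. Id2 stood at 39.0, 34.5, 42.5 and 49.6 CPM in untreated GFP+ luminal cells and 55.0, 65.7 and 50.2 after E+P, against 16.9, 8.70, 13.2 and 16.9 in untreated tdTomato+ luminal cells and 24.7, 27.6 and 23.4 after E+P. Id3 stood at 16.9, 6.74, 16.8 and 3.30 CPM in untreated GFP+ luminal cells and 7.27, 5.17 and 6.45 after E+P, against 47.7, 37.3, 32.9 and 16.4 in untreated tdTomato+ luminal cells and 57.4, 64.8 and 95.2 after E+P. In luminal cells Id2 was again higher in all GFP+ libraries and Id3 lower with overlap. Tested by edgeR's quasi-likelihood test with Benjamini-Hochberg adjustment, the log2 fold change of GFP+ over tdTomato+ cells in stroma was -1.79 ± 0.14 for Id3 (adjusted p = 1.16e-08; higher in 0 of 7 mice), 1.49 ± 0.13 for Id2 (adjusted p = 4.7e-08; higher in 7 of 7 mice) and -1.37 ± 0.10 for Smad7 (adjusted p = 6.89e-09; higher in 0 of 7 mice). In luminal cells it was -2.59 ± 0.36 for Id3 (adjusted p = 0.000101; higher in 0 of 7 mice), 1.34 ± 0.14 for Id2 (adjusted p = 6.79e-06; higher in 7 of 7 mice) and 1.58 ± 0.29 for Smad6 (adjusted p = 0.000506; higher in 6 of 7 mice) by the same edgeR test. Luminal Smad6 stood at 2.41, 4.93, 2.06 and 4.87 CPM in untreated GFP+ cells and 2.92, 4.79 and 3.33 after E+P. In tdTomato+ luminal cells Smad6 stood at 2.06, 2.74, 2.17 and 3.84 CPM untreated and 0.320, 0.427 and 0.761 after E+P. Its subsets overlapped without treatment and were apart after E+P. Smad7 stood at 28.8, 38.5, 30.3 and 39.1 CPM in untreated GFP+ luminal cells and 33.8, 45.8 and 63.3 after E+P, against 32.4, 36.3, 34.3 and 36.6 in untreated tdTomato+ luminal cells and 23.3, 33.8 and 31.1 after E+P. Smad7 overlapped between the luminal subsets and was not called there, and its log2 difference of stroma minus luminal cells was -1.68 ± 0.18 (adjusted p = 1.81e-08) by edgeR. Id1 was called in neither lineage.

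Beside these stromal differences, all 9 pericyte and smooth muscle, all 9 skeletal muscle and all 5 satellite cell markers were lower in GFP+ stroma, and all 11 fibroblast and adipocyte progenitor markers higher. Of the endothelial, Schwann cell, basal epithelial and immune lists only some genes were called, as given above. Their part in the members' differences was not tested. Without the E+P-treated and untreated tdTomato+ stromal libraries highest in skeletal muscle genes (replicate 2 of each), left out after seeing the data, 25 members were called between the stromal subsets, all of them among the 29, against 36% of all genes. In untreated mice alone 23 members were called between the stromal subsets (28.5% of all genes) and 13 between the luminal subsets (15.4%). In E+P-treated mice alone the counts were 20 (28% of all genes) and 13 (25.4%). In luminal cells the subsets also differed in markers, 7 of 8 hormone-sensing genes being lower and 6 of 7 luminal progenitor genes higher in GFP+ cells. Of other lists, 4 of 9 luminal epithelial genes and 1 endothelial gene were lower, and 3 of 7 basal epithelial and 2 pericyte and smooth muscle genes (Acta2 in both) were higher. The fibroblast list had 2 higher and 1 lower, and the Schwann cell list 1 of each. Basal epithelial markers summed to 79.2 ± 26.6 CPM in untreated GFP+ and 24.3 ± 14.2 in untreated tdTomato+ luminal cells. Hormone-sensing markers (8 genes, led by Prlr) summed to 998 ± 769.9 CPM without treatment in the GFP+ subset against 4729 ± 783 in the tdTomato+ subset (SD, n = 4 each). Luminal progenitor markers (7 genes, led by Kit) summed to 3129 ± 583 and 734 ± 366 CPM. Whether these account for any member's difference was not tested.

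E+P lowered Inhbb in both luminal subsets. Inhbb stood at 413, 631, 389 and 519.9 CPM in untreated and 184, 247 and 231 CPM in E+P-treated GFP+ luminal cells. In tdTomato+ luminal cells Inhbb was at 239, 302, 305 and 298 CPM untreated and 33.3, 35.8 and 27.3 CPM after E+P. No E+P-treated library reached the untreated range in either subset. By edgeR's quasi-likelihood test with Benjamini-Hochberg adjustment, the log2 fold change was -1.15 ± 0.17 (adjusted p = 0.00103) in GFP+ and -3.12 ± 0.19 (adjusted p = 3.92e-07) in tdTomato+ cells. The difference between the responses, GFP+ minus tdTomato+, was 1.97 ± 0.24 (adjusted p = 0.000498) by the same edgeR test. All 3 calls held without any 1 mouse. In GFP+ luminal cells hormone-sensing markers summed to 998 ± 769.9 CPM untreated (SD, n = 4) and 243 ± 72.2 after E+P (n = 3), with 3 of 8 genes called lower. Luminal progenitor markers summed to 3129 ± 583 and 1501 ± 79.8, with 1 of 7 called lower. Luminal epithelial markers summed to 6779 ± 858 and 5302 ± 652, with 1 of 9 called lower. Basal epithelial markers summed to 79.2 ± 26.6 and 134.7 ± 8.54, with 0 of 7 called, and 1 of 7 immune markers was called lower. Their part in the change of Inhbb was not tested.

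In tdTomato+ luminal cells 4 of 12 ligands rose, where 7.63% of all genes were higher. Bmp3 was measured at 29.3, 58.2, 37.7 and 78.9 CPM in the untreated and 378, 578 and 712 CPM in the E+P-treated libraries. Gdf15 was measured at 0.723, 0.426, 0.867 and 0.969 CPM in the untreated and 2.08, 5.09 and 3.52 CPM in the E+P-treated libraries. Tgfb3 was measured at 66.8, 46.4, 74.7 and 100.2 CPM in the untreated and 137, 206 and 179 CPM in the E+P-treated libraries. The untreated and E+P-treated libraries did not overlap in these genes. Tgfb1 was measured at 30.6, 33.6, 27.5 and 33.9 CPM in the untreated and 67.1, 66.8 and 69.6 CPM in the E+P-treated libraries. Tgfb1 was apart as well. Fold changes after E+P on the log2 scale, tested by edgeR's quasi-likelihood test with Benjamini-Hochberg adjustment, were 3.47 ± 0.61 for Bmp3 (adjusted p = 0.00158), 2.27 ± 0.52 for Gdf15 (adjusted p = 0.00549), 1.30 ± 0.22 for Tgfb3 (adjusted p = 0.000959) and 1.14 ± 0.21 for Tgfb1 (adjusted p = 0.00149). Leaving out 1 mouse at a time, Bmp3 passed in 7 of 7 refits (adjusted p up to 0.00934), Gdf15 passed in 2 of 7 refits (passing only without untreated mouse 4 or E+P-treated mouse 1; adjusted p up to 0.0444), Tgfb3 passed in 6 of 7 refits (failing without E+P-treated mouse 2; adjusted p up to 0.01005) and Tgfb1 passed in 6 of 7 refits (failing without E+P-treated mouse 2; adjusted p up to 0.0109). The difference between the responses of GFP+ and tdTomato+ luminal cells was not called for these genes, and Tgfb3 was called there with the mouse as a block (adjusted p = 0.00854). In GFP+ luminal cells Bmp3 had a log2 fold change of 2.04 and was not called (adjusted p = 0.0441 by edgeR). Tgfb1, Tgfb3 and Gdf15 did not reach an adjusted p under 0.05 in those cells.

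Of 11 receptors, 3 fell in tdTomato+ luminal cells, where 6.44% of all genes were lower. Tgfbr2 was measured at 208, 239, 218 and 269 CPM in the untreated and 125, 103 and 107 CPM in the E+P-treated libraries. Acvrl1 was measured at 5.83, 7.0, 4.41 and 7.41 CPM in the untreated and 2.08, 2.99 and 3.09 CPM in the E+P-treated libraries. Bmpr1a was measured at 129, 153, 132 and 132 CPM in the untreated and 106, 106 and 108 CPM in the E+P-treated libraries. All untreated libraries lay above all E+P-treated libraries in each gene, though the gap in Bmpr1a was narrow. Tested with edgeR's quasi-likelihood test with Benjamini-Hochberg adjustment, the log2 fold change after E+P was -1.04 ± 0.13 for Tgfbr2 (adjusted p = 0.000111), -1.14 ± 0.23 for Acvrl1 (adjusted p = 0.00272) and -0.33 ± 0.08 for Bmpr1a (adjusted p = 0.00977). When 1 mouse was left out, Tgfbr2 passed in 7 of 7 refits (adjusted p up to 0.00195), Acvrl1 passed in 4 of 7 refits (failing without E+P-treated mouse 1, 2 or 3; adjusted p up to 0.017) and Bmpr1a passed in 0 of 7 refits (failing without any of them; adjusted p up to 0.0446). Bmpr1a was not called with replicate number as a block (adjusted p = 0.0136), with DESeq2 size factors (adjusted p = 0.0119) or without the low-count filter (adjusted p = 0.0422), each in edgeR. Bmpr1b was measured at 3.46, 7.36, 7.01 and 25.2 CPM in the untreated and 52.9, 60.3 and 68.6 CPM in the E+P-treated libraries. Those Bmpr1b groups did not overlap, but the gene was not called by edgeR with a log2 fold change of 2.51 ± 0.75 (adjusted p = 0.0263). It was called by limma-voom (adjusted p = 0.000481) and is named after its values were seen. In GFP+ luminal cells Tgfbr2 and Acvrl1 went the same way without being called by edgeR. Their log2 fold changes there were -0.56 (adjusted p = 0.0117) and -0.95 (adjusted p = 0.0116) by edgeR. DESeq2's Wald test called both there (adjusted p = 0.000985 and 0.000508), and not Bmpr1a. For none of these did edgeR call a difference between the responses of the luminal subsets.

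Of the remaining members in tdTomato+ luminal cells, Ltbp1 and Id2 rose and Smad6 fell. Ltbp1 was measured at 71.3, 81.2, 93.2 and 115 CPM in the untreated and 112, 225 and 194 CPM in the E+P-treated libraries. Smad6 (ENSMUSG00000036867.7, chr9:63953076-64022059) was measured at 2.06, 2.74, 2.17 and 3.84 CPM in the untreated and 0.320, 0.427 and 0.761 CPM in the E+P-treated libraries. Id2 was measured at 16.9, 8.70, 13.2 and 16.9 CPM in the untreated and 24.7, 27.6 and 23.4 CPM in the E+P-treated libraries. Ltbp1 overlapped between untreated and E+P-treated libraries by the lowest of the treated ones, and Smad6 and Id2 did not overlap. The log2 fold change after E+P, tested by edgeR's quasi-likelihood test with Benjamini-Hochberg adjustment, was 1.00 ± 0.24 for Ltbp1 (adjusted p = 0.0081), -2.36 ± 0.45 for Smad6 (adjusted p = 0.00173) and 0.88 ± 0.20 for Id2 (adjusted p = 0.00534). Leaving out 1 mouse, Ltbp1 passed in 2 of 7 refits (passing only without untreated mouse 4 or E+P-treated mouse 1; adjusted p up to 0.0704), Smad6 passed in 5 of 7 refits (failing without E+P-treated mouse 1 or 2; adjusted p up to 0.016) and Id2 passed in 3 of 7 refits (failing without untreated mouse 3 or E+P-treated mouse 1, 2 or 3; adjusted p up to 0.0368). Ltbp1 in GFP+ luminal cells was at 226, 276, 176 and 339 CPM untreated and 146, 140.5 and 147 CPM after E+P, which was not called by edgeR. Its log2 fold change there was -0.82, with an adjusted p of 0.041 by edgeR and 0.00957 by DESeq2's Wald test. Without the low-count filter Ltbp1 was not called in tdTomato+ luminal cells (adjusted p = 0.0305) or for the difference in response (adjusted p = 0.0287) by edgeR. The log2 difference of its responses, GFP+ minus tdTomato+, was -1.82 ± 0.34 (adjusted p = 0.00765) by edgeR, and Ltbp1 passed in 3 of 7 refits (failing without untreated mouse 1 or 2 or E+P-treated mouse 2 or 3; adjusted p up to 0.0706) when 1 mouse was left out. Of the 11 calls in tdTomato+ luminal cells, 3 (Bmp3, Inhbb and Tgfbr2) were left without E+P-treated replicate 2, 6 without E+P-treated replicate 3 and 7 without E+P-treated replicate 1 or untreated replicate 3. Hormone-sensing markers summed to 4729 ± 783 CPM untreated (SD, n = 4) and 2949.7 ± 665 after E+P (n = 3), led by Prlr in both. The 8 genes went both ways, with 1 called higher (Tnfsf11) and 1 lower (Cited1). Luminal progenitor markers summed to 734 ± 366 and 176 ± 45.7, with 4 of 7 called lower. Of other lists, 2 basal epithelial (Krt17 and Trp63), 2 luminal epithelial (Cldn3 and Cldn7), 1 fibroblast (Dcn) and 1 immune marker (Csf1r) were called higher, and 1 fibroblast (Dpp4) and 1 Schwann cell marker (Mbp) lower. Their part in the members' changes was not tested.

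**Figure D3:**
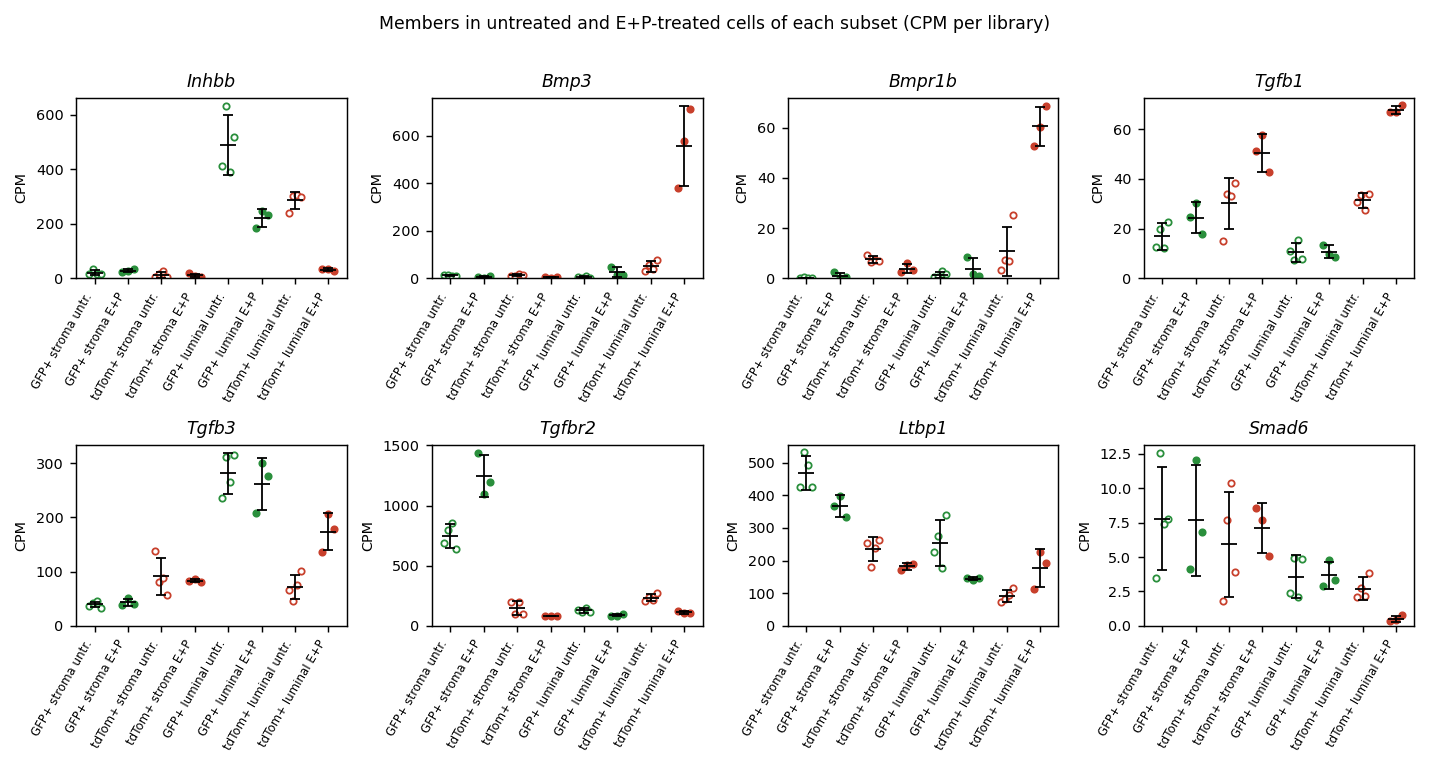
CPM of 8 members in every library of the 8 groups (horizontal axis), with GFP+ cells in green, tdTomato+ cells in red, untreated libraries as open points and E+P-treated libraries as filled points. Black bars give the mean and SD of 3 or 4 libraries; in tdTomato+ luminal cells Inhbb, Tgfbr2 and Smad6 are lower and Bmp3, Tgfb1 and Tgfb3 higher after E+P.

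In the stroma the tests of E+P depended on the method. By edgeR's quasi-likelihood test no member of 42 was called in GFP+ stroma, in tdTomato+ stroma or for the difference between them. The shares of all genes called were 0.231%, 0.124% and 0.045%. DESeq2's Wald test called 3 members in GFP+ stroma (Inhba, Chrdl1 and Ltbp2), 5 in tdTomato+ stroma (Bmp2, Bmp3, Bmp7, Gdf10 and Ltbp2) and 2 for the difference (Inhba and Tgfbr2), where it called 1.08%, 2.16% and 0.624% of all genes. Limma-voom called 1, 0 and 0 members, and 0.562%, 0.045% and 0.0225% of all genes. The following members were named after their values were seen. Ltbp2 in GFP+ stroma was at 1.82, 4.49, 2.86 and 2.02 CPM untreated and 7.95, 21.3 and 12.9 CPM after E+P. Chrdl1 in GFP+ stroma was at 148, 169, 137 and 92.3 and 39.4, 31.9 and 70.8 CPM, and Inhba at 2.65, 6.82, 8.65 and 6.70 and 37.9, 13.8 and 15.2 CPM. The untreated and E+P-treated groups did not overlap in Ltbp2, Chrdl1 or Inhba. Bmp2 in tdTomato+ stroma was at 24.4, 49.9, 32.0 and 52.2 CPM untreated and 52.9, 175 and 162 CPM after E+P. Bmp3 there was at 9.78, 9.03, 17.1 and 15.9 and 4.18, 3.56 and 3.79 CPM. In tdTomato+ stroma DESeq2's Wald test had Bmp2 and Ltbp2 higher and Bmp3, Bmp7 and Gdf10 lower after E+P. For the values printed here, the adjusted p by edgeR was 0.0881 for Ltbp2, 0.0386 for Chrdl1, 0.088 for Inhba, 0.0608 for Bmp2 and 0.041 for Bmp3.

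Of 80 other genes of the pathway, 24 were higher (20.6% of all genes) and 13 lower (21.3%) in GFP+ stroma among 62 tested. In GFP+ luminal cells 10 were higher (15.7%) and 16 lower (19%) among 50 tested. Between stroma and luminal cells 43 were higher (33%) and 10 lower (30.5%) among 64 tested, a count that includes genes passing the filter in 1 lineage only. The subset difference differed between the lineages for 34 of 64 (33.2% of all genes), 20 upward and 14 downward, over genes that need not pass the filter within each lineage. After E+P 8 of 50 were higher (7.63%) and 2 lower (6.44%) in tdTomato+ luminal cells, and 1 was higher (Tgif2; 3.17%) and 1 lower (Crim1; 2.78%) in GFP+ luminal cells. In the stroma 0 of 62 were called by edgeR (0.231% of all genes in GFP+ and 0.124% in tdTomato+ cells). In tdTomato+ luminal cells the genes that rose were Bmp8b, Cd109, Tsku, Dcn, Chrd, Furin, Tgif1 and Fkbp1a, and Smad3 and Zfyve9 fell. Dcn is also on the fibroblast and adipocyte progenitor list, and stood at 4.72 CPM untreated and 35.5 after E+P there, against 6260.4 in untreated GFP+ stroma. Col3a1, which leads that list in GFP+ stroma at 16816 CPM untreated, stood at 8.67 and 0.824 CPM in the same tdTomato+ luminal groups. Col1a1 stood there at 4.98 and 0.696 CPM. Of the list, 1 gene (Dcn) was called higher and 1 (Dpp4) lower. Whether the rise of Dcn came from stromal cells was not tested. Cd109, a TGF-beta co-receptor, went from 0.587 ± 0.289 CPM (SD, n = 4) to 5.45 ± 0.849 CPM (n = 3), and Smad3, a transducer of TGF-beta and activin signals, from 195 ± 32.7 to 107 ± 11.2 CPM. By edgeR's quasi-likelihood test with Benjamini-Hochberg adjustment, the log2 fold change was 3.27 ± 0.51 for Cd109 (adjusted p = 0.00044), 1.15 ± 0.16 for Furin (adjusted p = 0.000218) and -0.84 ± 0.14 for Smad3 (adjusted p = 0.000614). Furin, a protease that processes TGF-beta precursors, was the gene of this list whose response differed between the luminal subsets. The median log2 fold change of the tested genes after E+P in tdTomato+ luminal cells was -0.09, beside -0.05 over all genes.

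Promoter sequences are shown for 3 members, those with the largest fold change among members called after E+P in tdTomato+ luminal cells and with a sequence. RefSeq promoters (GRCm38.p6, 300 bases around each gene start) were matched for 31 of 42 members, by 38 sequences. Not matched were Tgfb3, Bmp2, Bmp3, Bmp7, Tgfbr3, Acvrl1, Nog, Chrdl1, Fst, Smad7 and Id1. On both strands, 6 motifs were searched, all chosen with the values known. The SMAD palindrome GTCTAGAC was in 0.213% of all 32851 promoters and in 1 of 38 member promoters, that of Smad6. The GC box GGCGCC bound by BMP SMADs was in 11.9% of all and 10 of 38, and the CAGACA box in 21% and 7 of 38. The single estrogen receptor site AGGTCA was in 16.3% of all and 5 of 38, the paired site GGTCA with TGACC after 3 bases in 0.0700% and 0 of 38, and the single progesterone receptor site TGTTCT in 19.0% and 4 of 38. A match describes letters in the window and no binding. Capitals mark AGAACA, the reverse strand of TGTTCT, in Inhbb, TGTTCT and GTCTAGAC in Smad6, and AGGTCA in Gdf15, whose other listed promoter holds none of the 6 motifs and is not printed.
Inhbb, chr1:119422199-119422498, minus strand: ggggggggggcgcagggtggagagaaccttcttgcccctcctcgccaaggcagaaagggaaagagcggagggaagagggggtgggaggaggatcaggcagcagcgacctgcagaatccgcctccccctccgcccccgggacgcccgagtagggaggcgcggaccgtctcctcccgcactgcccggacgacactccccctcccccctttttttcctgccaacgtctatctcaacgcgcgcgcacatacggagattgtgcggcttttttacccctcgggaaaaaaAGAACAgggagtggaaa
Smad6, chr9:64022010-64022309, minus strand: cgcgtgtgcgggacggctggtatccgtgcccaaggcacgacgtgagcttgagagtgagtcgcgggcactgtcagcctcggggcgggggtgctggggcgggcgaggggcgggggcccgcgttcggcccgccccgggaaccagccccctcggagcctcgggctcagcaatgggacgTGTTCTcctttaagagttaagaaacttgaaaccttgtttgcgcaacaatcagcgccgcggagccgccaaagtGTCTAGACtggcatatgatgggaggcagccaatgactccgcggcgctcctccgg
Gdf15, chr8:70632407-70632706, minus strand: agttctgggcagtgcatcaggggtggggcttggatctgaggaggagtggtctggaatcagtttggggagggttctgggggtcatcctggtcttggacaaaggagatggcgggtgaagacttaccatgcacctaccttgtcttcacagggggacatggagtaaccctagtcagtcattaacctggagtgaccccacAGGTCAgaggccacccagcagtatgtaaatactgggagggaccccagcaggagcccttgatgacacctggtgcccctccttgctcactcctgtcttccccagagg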

How the data were processed

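Raw counts of 50600 genes in 28 libraries, deposited by the authors, came from reads aligned with STAR 2.5.2a to GRCm38.p5 per the submitters' processing notes; the strand setting and annotation release were not given. Genes were named and measured by GENCODE M21. CPM used TMM factors over all libraries. Genes passing filterByExpr were tested in edgeR 4.0.16 (R 4.3.3) with robust quasi-likelihood fits of 4 groups per lineage or all 8 groups, two-sided, with Benjamini-Hochberg adjustment over all genes. Approximate standard errors were the absolute log2 fold change over the root of F. Alternatives were DESeq2 1.42.0, limma 3.58.1, other scaling, no filter, a block and leaving out mice. Libraries of 1 mouse share a number in the labels; their deviations from group means correlated at 0.0496 between stromal and 0.157 between luminal subsets, against -0.0194 and -0.0605 between mice. Members and lists were chosen with earlier results of these data known. Called members with the higher group averaging 5 CPM or more, up to 5 per role and comparison by size of fold change, were given in full, as were all called after E+P or for a difference between groups. Of these, Gdf10, Bmp6, Bmp4 and Chrdl1 between lineages and Bmpr1b between stromal subsets were given by level alone. Bmp5 was given by level alone between luminal subsets and without a p-value for the subset difference between lineages.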

Additional observations from a re-analysis of the deposited data

Results flagged for a closer look

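In 146 groups of 4 untreated libraries with a mean of at least 1 CPM, 7 had a library far from the other 3 by Dixon's criterion on the log2 scale. Chance gives about 1 in 20, or 7.3 of 146. Bmp4 in tdTomato+ stroma was at 8.26, 8.66, 12.7 and 8.74 CPM, with replicate 3 at 12.7 CPM apart from the others. Tgfb1 in tdTomato+ stroma was at 14.9, 34.0, 33.1 and 38.5 CPM, with replicate 1 at 14.9 CPM apart from the others. Bmpr2 in GFP+ stroma was at 427, 416, 421 and 348 CPM, with replicate 4 at 348 CPM apart from the others. The outlying library was the highest in Bmp4 and the lowest in Tgfb1 and Bmpr2. Tgfbr1 in GFP+ stroma was at 115, 115, 93.9 and 115 CPM, with replicate 3 at 93.9 CPM apart from the others. Bmpr1a in tdTomato+ luminal cells was at 129, 153, 132 and 132 CPM, with replicate 2 at 153 CPM apart from the others. Inhbb in tdTomato+ luminal cells was at 239, 302, 305 and 298 CPM, with replicate 1 at 239 CPM apart from the others. Bmpr1a had its outlying library on the high side, and Tgfbr1 and Inhbb on the low side. Nbl1 in tdTomato+ luminal cells was at 2.32, 2.43, 2.60 and 0.969 CPM, with replicate 4 at 0.969 CPM apart from the others.

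The difference of GFP+ over tdTomato+ cells was itself different between stroma and luminal cells for 17 of 36 members, or 47.2%, against 39.6% of all genes that passed the low-count filter within both lineages. On the log2 scale, stroma minus luminal cells, it was 1.18 for Tgfb1, -2.47 for Tgfb2, -2.36 for Tgfb3, 4.06 for Bmp3, -3.98 for Bmp5 (its luminal part could only come out higher in GFP+ cells), 3.97 for Bmp7, 2.38 for Gdf11 and -1.60 for Gdf15 among the ligands. Among the receptors it was -1.38 for Tgfbr1, 3.79 for Tgfbr2, 0.57 for Acvr1 and 0.60 for Acvr2a. Among the antagonists, binding proteins and targets it was 2.73 for Nbl1, 3.74 for Fst, -5.28 for Ltbp2, 1.10 for Ltbp3 and -1.68 for Smad7. The response to E+P differed between GFP+ and tdTomato+ luminal cells, GFP+ minus tdTomato+, by 1.97 for Inhbb and -1.82 for Ltbp1. These were 2 of 36 members, beside 2.27% of all genes.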

How the results depend on the processing

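Counts of members called between subsets, between lineages and for the subset difference between lineages stayed within 1.5 times of 29, 20, 41 and 17 under every setting, except that the luminal subset comparison gave 13 in untreated and 13 in E+P-treated mice alone. In GFP+ luminal cells the 1 call (5.96% of all genes called) became 5 at an adjusted p under 0.05 (15%), 2 with DESeq2 size factors (6.05%), 2 without the low-count filter (2.81%), 5 with DESeq2's Wald test (12.3%) and 2 with limma-voom (5.88%). In GFP+ stroma the count of 0 became 1, 4, 3 and 1 at an adjusted p under 0.05, without the filter, with DESeq2's Wald test and with limma-voom. In tdTomato+ stroma it became 1 at an adjusted p under 0.05, 9 without the filter, 5 with DESeq2's Wald test and 1 with the replicate number as a block. The shares of all genes called in GFP+ and tdTomato+ stroma, 0.231% and 0.124%, became 0.709% and 0.804% at an adjusted p under 0.05, 1.29% and 2.36% without the filter and 1.08% and 2.16% with DESeq2's Wald test. For the luminal difference in response the 2 calls became 5, 1 and 5 at an adjusted p under 0.05, without the filter and with DESeq2's Wald test (2.27% of all genes became 6.58%, 1.34% and 6.13%), and for the stromal difference the 0 became 7 without the filter and 2 with DESeq2's Wald test. Without the filter, 35652 genes entered the stromal fit, 15049 of them at 0 in 7 or more of 14 libraries, and the prior degrees of freedom of the spread were infinite against 7.14 with the filter, so every gene took the trended spread and its own was not used. That fit called 840 genes after E+P in tdTomato+ stroma against 22, and its stromal calls are not relied on.

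With 1 mouse left out at a time, counts ranged over 25 to 28 between the stromal subsets, 17 to 21 between the luminal subsets, 36 to 40 between lineages, 12 to 17 for the subset difference between lineages, 3 to 11 for E+P in tdTomato+ luminal cells, 1 to 2 in GFP+ luminal cells, 1 to 2 for their difference, 0 to 1 in GFP+ stroma and 0 to 1 in tdTomato+ stroma. The share of all genes called ranged over 6.72% to 13% for E+P in tdTomato+ luminal cells, against 14.1% with all mice, and over 0.999% to 5.91% in GFP+ luminal cells, against 5.96%. For E+P it was 0.0863% to 0.265% in GFP+ and 0.00539% to 0.486% in tdTomato+ stroma. For the luminal difference in response it was 0.195% to 1.91%. Between the stromal subsets it was 32.2% to 40.9% and between the luminal subsets 23.2% to 32.3%. Between lineages it was 55.7% to 61.9%, and for the subset difference between lineages 24.7% to 31.6%. With all mice these were 42%, 34.7%, 63.5% and 33.2%. The mouse as a replicate block gave 30, 20, 40 and 19 for the subset, lineage and subset by lineage counts and 3 for the luminal difference in response, and the calls it changed are named with the genes. Of all genes that block called 39.7%, 35.7%, 63.5% and 33.5%, and 2.88% for the luminal difference in response. The replicate number as a block, which joins different mice, gave 10 calls for E+P in tdTomato+ luminal cells (13.2% of all genes). There the 11 calls (14.1%) became 14 at an adjusted p under 0.05 (26.9%), 10 with DESeq2 size factors (14%), 9 without the filter (6.57%), 13 with DESeq2's Wald test (21.5%) and 12 with limma-voom (15.5%). Single calls were lost in these fits too. DESeq2 size factors lost Bmpr1a between lineages and after E+P in tdTomato+ luminal cells, and DESeq2's Wald test lost it between lineages. Without the filter the calls lost were Tgfbr1 between stromal subsets, Acvr2a and Ltbp3 between luminal subsets, Tgfb2 and Id2 between lineages, and Gdf11 and Gdf15 for the subset difference between lineages. Bmpr1a and Ltbp1 after E+P in tdTomato+ luminal cells and Ltbp1 for the luminal difference in response were lost there as well. Limma-voom lost Bmp4 between stromal subsets and Gdf15 for the subset difference between lineages. Among alternatives of single called members 1693 kept direction and call, 180 kept direction only and 1 reversed, Id2 between lineages in E+P-treated mice alone (log2 fold change -0.088), and the cause was not tested.

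Only 3 or 4 mice entered each group, and RNA quality of single libraries is not given in the sources used here. Luminal Bmp4, Bmp6, Gdf10, Nog, Grem1 and Chrdl1 did not pass the low-count filter, so that their differences between luminal groups were not tested.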
